A study of Mus musculus with 19 samples.

Results

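The merged transcript models of mouse blastocysts held 3499 unannotated multi-exon loci that lay outside every annotated gene, of 82695 loci and genes in all (4.23%). A locus was counted when all of its transcripts carried the names that the assembler StringTie gives to its own transcripts and none carried a gene name, when at least 1 transcript had 2 or more exons, and when its span touched no transcript of the guide annotation, GENCODE M12, on either strand. The choice among assembled loci used position and structure and no measured level, but the assembly itself used reads of these same embryos. The models came from 19 early blastocysts, 8 of them *Upf2*-null and 11 control, collected at E3.25 and sequenced whole with 1 library per embryo. *Upf2*-null embryos (genotype *Upf2* -/-) lacked exons 2 and 3 of *Upf2* in every cell and control littermates were *Upf2* +/+. The deletion had been made in *Upf2*-floxed mice on the C57BL/6 background with Cre recombinase under the *E2a* promoter, which is active early in preimplantation development, and was passed on through heterozygous parents. The study notes that this allele still yields a truncated UPF2 protein, which earlier work showed to lack activity in nonsense-mediated RNA decay. By the study's general methods, early blastocysts came from zygotes of superovulated dams aged 4 to 8 weeks. They were grown in M16 medium and collected 90 to 94 h after the dams received hCG, with no difference named between genotypes. The methods also describe flushed blastocysts for some experiments and do not say which kind was sequenced. The labels give no age for single embryos beyond the stage, and nothing in them says which embryos shared a dam.

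UPF2 bridges UPF1 and UPF3 in nonsense-mediated RNA decay, the pathway that removes spliced transcripts in which translation stops well upstream of an exon junction. Unannotated multi-exon loci in an assembly can be long non-coding RNA genes, extensions of known genes, transcribed repeats and pseudogene copies, and spliced non-coding RNAs with short reading frames can be decay targets. Many long non-coding RNAs begin at the promoter of a protein-coding gene and run in the opposite direction, an arrangement called divergent or head-to-head. In the blastocyst the outer trophectoderm, marked by *Cdx2*, *Gata3* and keratins, surrounds the epiblast, marked by *Pou5f1* and *Klf2*, and the primitive endoderm.

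The sequences behind 1 positional pattern, starts set back to back with a coding gene, are given for 4 loci as 30 bases of mm10 read on the strand of the locus. The capital marks the first base of the first exon, and the letters came from RefSeq promoter windows on GRCm38.p6, the same coordinates.
Start of MSTRG.24491, head-to-head with *Pou5f1*, chr17:35505853-35505882, minus strand: cccttaggacgggacCccaggaggccttca
Start of MSTRG.47903, head-to-head with *Tex261*, chr6:83775920-83775949, plus strand: gcctacacagagcccAgattgattggaacc
Start of MSTRG.13288, head-to-head with *Ptgr2*, chr12:84285216-84285245, minus strand: ggaccacactgcgcaAgcgcaggactaagc
Start of MSTRG.7065, head-to-head with *Usp15*, chr10:123196973-123197002, plus strand: ttgtgggaatggcgtCcccggccccgcccc

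The loci were short and had few exons. Of the 3499 loci, 2135 had 2 exons in the transcript with most exons (61.0%), 879 had 3, 307 had 4 and 178 had 5 or more, with a maximum of 13. The longest spliced transcript of a locus had a median of 594 bases (quartiles 377 and 974, range 200 to 8886). Annotated multi-exon genes in the same models, 30290 in number, had a median of 5 exons and 2113 spliced bases, and 21.5% had 2 exons. The 2601 unannotated multi-exon loci that did overlap an annotated span were shaped much like those outside, with a median of 2 exons and 497 bases. Introns of the loci were not short: the 8271 distinct introns had a median of 1952 bases, beside 1454 for annotated genes and 2748.5 for the overlapping loci. In 19 loci an intron was under 50 bases, and 23 introns of that size were found in all. The 3 classes come from 1 assembly and are described without a test.

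**Figure D1:**
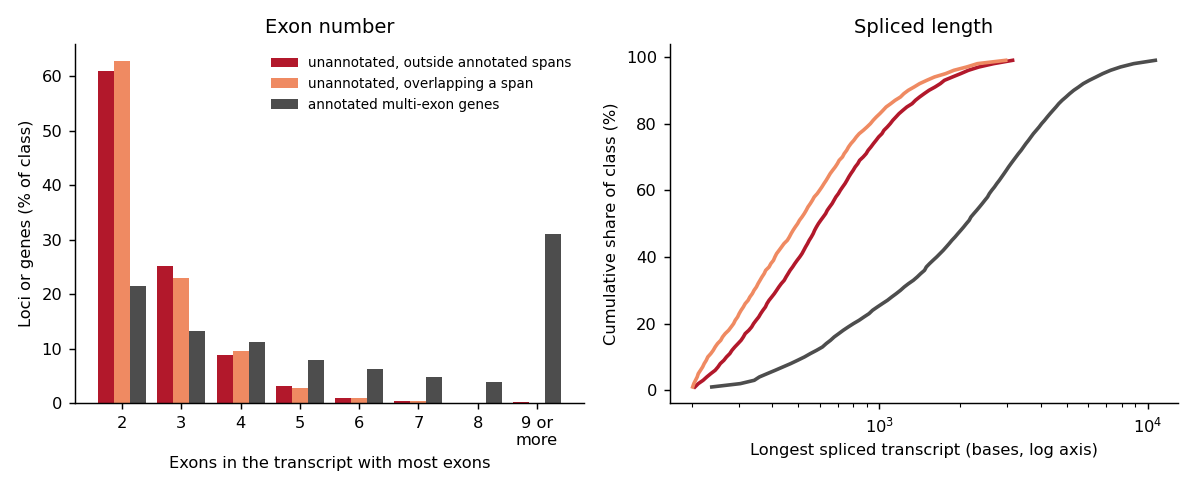
Left, the share of loci or genes in each class (%, vertical axis) by the number of exons in the transcript with most exons. Right, the cumulative share of each class (%) by the length of the longest spliced transcript in bases on a log axis, from the 1st to the 99th percentile. Unannotated loci outside annotated spans (3499) and overlapping a span (2601) lie close together, with medians of 594 and 497 bases, and annotated multi-exon genes (30290) lie to the right with a median of 2113.

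Most loci held a single transcript, 2427 of 3499 (69.4%), and the 3499 loci had 6107 transcripts between them, up to 36 in 1 locus. The plus strand held 1774 loci and the minus strand 1725. Loci were also laid over each other: 353 overlapped another of the loci on the opposite strand. The reads were mapped as unstranded, so the strand of a multi-exon transcript came from its splice sites.

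The loci with most exons were on scaffolds where the merged models hold no annotated transcript. Later annotation was compared on the reference chromosomes only, so whether known genes lie at the scaffold loci was not checked. MSTRG.29449 had 13 exons on an unlocalized scaffold of chromosome 1, MSTRG.29465 had 12 exons on another scaffold of chromosome 1, and MSTRG.63488 had 10 exons on an unlocalized scaffold of chromosome X. The first pair shared 6 distinct lengths among their internal exons (69, 78, 81, 102, 151 and 169 bases), of 11 internal exons in MSTRG.29449 and 10 in MSTRG.29465. In both, exons of 169, 78, 78 and 81 bases followed each other in that order. Over all scaffolds, 22 of 70 loci had 5 or more exons (31.4%), beside 156 of the 3429 loci on the reference chromosomes (4.55%). The largest spliced lengths were 8886 bases for MSTRG.63563 on chromosome Y, 8320 for MSTRG.4034 on chromosome 1, nearest to the vomeronasal receptor gene *Vmn1r1*, and 7000 for MSTRG.19332 on chromosome 15. In MSTRG.19332 the single intron was 36 bases.

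Loci were not spread over chromosomes in the way that annotated genes were. Chromosome 13 held most, 247 loci, followed by chromosome 4 with 223 and chromosome 12 with 219. Relative to annotated genes, chromosome 18 (149 loci) and chromosome 13 stood highest, with 16.6 and 16.2 loci per 100 annotated genes. Chromosome 7, which has the most annotated genes (4717), held 153 loci, or 3.24 per 100 genes. Chromosome Y held 8 loci beside 1570 annotated genes, or 0.510 per 100. Annotated gene totals include the many predicted genes and receptor clusters of the annotation. Loci were also counted only outside annotated spans, and the room that such spans leave on each chromosome was not measured.

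**Figure D2:**
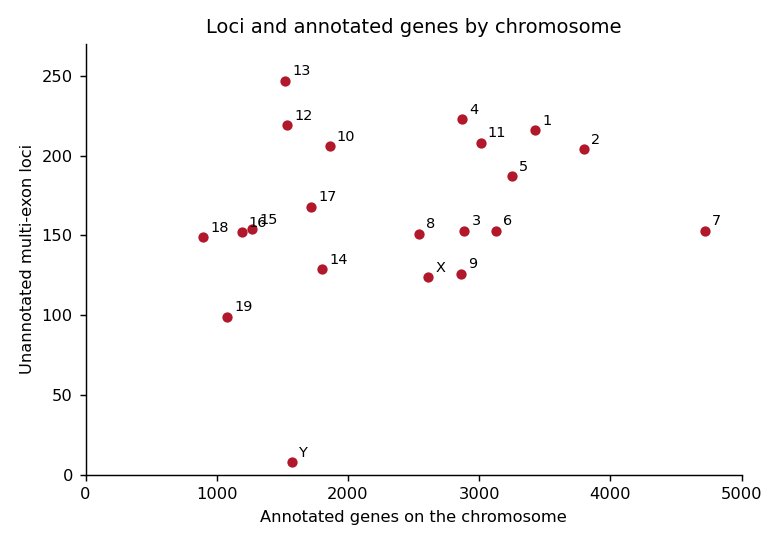
Each point is a chromosome, with its number of annotated genes on the horizontal axis and its number of unannotated multi-exon loci on the vertical axis. Chromosome 13 has most loci (247) with 1522 annotated genes, chromosome 7 has 153 loci with 4717 annotated genes, and chromosome Y has 8 loci.

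Loci gathered in some windows of 1 Mb. The fullest window, from 168 Mb on chromosome 2, held 15 loci beside genes such as *Nfatc2*, *Pard6b* and *Zfp64*. A window from 20 Mb on chromosome 16 held 14 loci, 7 of them nearest to the pseudogene *Rps10-ps2*. Neighbouring windows from 18 Mb and 19 Mb on chromosome 12 held 11 loci each, 5 and 4 of which lay nearest to *Bnip3l-ps* and *Gm9257*. The window from 67 Mb on chromosome 13 held 11 loci, of which 5 were nearest to *BC048507* and 3 named zinc finger genes, *Zfp455*, *Zfp458* and *Zfp729b*, were among the nearest genes of the others.

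The gene with most loci as its neighbours was *BC048507* on chromosome 13, which was nearest to 11 loci spread over 465455 bases (chr13:67925790-68391244). Those 11 loci had 61 transcripts, and several were built from repeated pieces. A first exon of 137 bases, within 3 bases, followed by an exon of exactly 68 bases occurred in 6 of all 3499 loci, and 5 of those 6 belonged to this cluster. MSTRG.15743 began at 67949718 and MSTRG.15746 at 67981182, each with exons of 137 and 68 bases, MSTRG.15750 began with the same pair of lengths further along, and MSTRG.15751 began with exons of 140 and 68 bases. GENCODE M21, a later release of the annotation, places lincRNA genes at MSTRG.15743 (*Gm7969* and *Gm48419*) and at MSTRG.15746 (*Gm48423*). The junctions of their first 3 exons are shown because their letters are the same in all 3 genes. Capitals mark the last base of the exon before and the first base of the exon after each junction, read from GENCODE M21 transcripts on the plus strand.
First junction, *Gm7969*, intron chr13:67949855-67951084: gttggactgcaggcTTgaccggaggcccat
First junction, *Gm48419*, intron chr13:67965587-67966816: gttggactgcaggcTTgaccggaggcccat
First junction, *Gm48423*, intron chr13:67981319-67982548: gttggactgcaggcTTgaccggaggcccat
Second junction, *Gm7969*, intron chr13:67951153-67951795: caaagaattctacaGTttgcagttgcagtt
Second junction, *Gm48419*, intron chr13:67966885-67967527: caaagaattctacaGTttgcagttgcagtt
Second junction, *Gm48423*, intron chr13:67982617-67983259: caaagaattctacaGTttgcagttgcagtt
A read across such a junction cannot be placed on 1 copy by these letters, so the number of loci here and the long introns that join copies are uncertain. *BC048507* itself had 13 counts in the 8 *Upf2*-null libraries together and 12 in the 11 control libraries, and was not tested.

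A locus lay a median of 11586 bases from the nearest annotated gene on either strand (quartiles 3786 and 31296, range 0 to 806880), over the 3429 loci on chromosomes with annotated genes. Within 1 kb of a gene were 365 loci (10.6%), and 239 lay more than 100 kb away (6.97%). To the nearest gene on the same strand the median was 27097 bases, and to the nearest protein-coding gene 22034. The closest were MSTRG.55900, with no base between it and *Usp38*, and MSTRG.13288 and MSTRG.23325, each 1 base from *Ptgr2* and *Qk*. *Usp38* encodes a deubiquitinase, *Ptgr2* a prostaglandin reductase and *Qk* an RNA-binding protein. The farthest, MSTRG.4514 on chromosome 10 (chr10:15791680-15801658), had 2 exons 806880 bases from a small nucleolar RNA gene, and a lincRNA gene of GENCODE M21, *C330004P14Rik*, now stands there. The next farthest, MSTRG.26240 and MSTRG.26232 on chromosome 18, were 729250 and 618068 bases from a microRNA gene.

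The nearest gene was protein-coding for 1877 loci (54.7%), while protein-coding genes made up 43.8% of annotated genes. Processed pseudogenes were nearest to 482 loci (14.1%, beside 14.8% of genes) and lincRNA genes to 373 (10.9%, beside 8.37%). Among families taken by gene name, zinc finger genes named *Zfp* were nearest to 55 loci, 1.60% of loci beside 0.831% of genes. Olfactory receptor genes named *Olfr*, which stay silent in most tissues, were nearest to 11 loci, 0.321% beside 2.86%. Vomeronasal receptor genes named *Vmn* were nearest to 21 loci (0.612% beside 1.10%), and microRNA genes named *Mir* to 33 (0.962% beside 2.42%). Predicted genes named *Gm* were nearest to 1255 loci (36.6% beside 43.8%) and *Rik* genes to 208 (6.07% beside 5.27%). Nearness depends on how much of the chromosome a family covers, so these shares describe the neighbours and were not tested.

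Close to genes the loci stood mostly head-to-head. Of the 365 loci within 1 kb, 183 were head-to-head with the nearest gene (50.1%), 70 tail-to-tail, 60 upstream on the same strand and 52 downstream on the same strand. With a protein-coding gene within 1 kb, 151 of 268 loci were head-to-head (56.3%). At greater distances the share of head-to-head loci beside a coding gene was 30.4% from 1 to 5 kb (405 loci), 32.9% from 5 to 20 kb (659 loci) and 31.2% from 20 kb (545 loci). The 151 divergent starts lay a median of 138 bases from their coding gene, and 112 of them lay within 250 bases. Over all distances the 3429 loci split into 1039 head-to-head, 825 tail-to-tail, 844 upstream and 721 downstream.

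**Figure D3:**
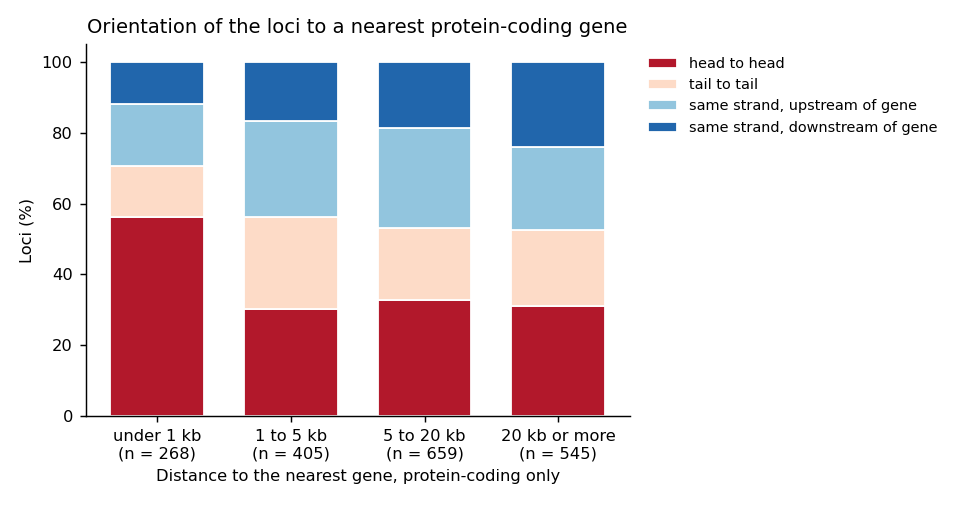
Bars show the share of loci (%) in each orientation to their nearest gene where that gene was protein-coding, in 4 ranges of distance with the number of loci under each. Head-to-head loci make up 56.3% of the 268 loci under 1 kb and 30.4% to 32.9% in the other 3 ranges.

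The promoters of these coding genes held more CG dinucleotides than those of other coding genes. In RefSeq promoter windows of 300 bases (250 before the gene's start and 50 after it), the 108 coding genes head-to-head with a locus within 1 kb that matched a window had a median of 23 CG, beside 18 for the 947 other coding nearest genes and 14 for all 16148 coding genes. The letters TATAAA stood on either strand in 6.48% of the windows of head-to-head genes, in 12.1% of the other coding nearest genes and in 14.3% of all coding genes. Windows of RefSeq genes that start within 50 bases of a locus start, 96 in all, had a median of 6 CG, beside 7 over all 32851 windows. A match to such letters is a description and no site.

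The loci have no level of their own in the deposited counts, because the count table lists Ensembl genes and none of the 3499 loci has a row. The level of the nearest annotated gene stands in for their surroundings only. Library totals ran from 4068350 to 5993745 counts in *Upf2*-null and from 4056072 to 5854659 in control embryos. Counts for *Upf2* ran from 64.3 to 122.6 CPM (counts scaled to the library total after TMM normalization) in *Upf2*-null and from 37.2 to 87.8 in control embryos (log2 fold change 0.66 ± 0.18 SE, adjusted p = 0.185, edgeR), but a count over the whole gene includes the exons that remain and so checks no genotype. Trophectoderm markers summed to 1002 to 1667 CPM in *Upf2*-null and 921 to 1848 in control embryos, epiblast markers to 393 to 483 and 446 to 866, and primitive endoderm markers to 964 to 1544 and 959 to 1621. All 8, 8 and 7 genes of those lists were tested. Summed 2-cell markers ran from 0 to 15.5 CPM in *Upf2*-null and from 0.197 to 1580 in control embryos. Oocyte markers ran from 0.531 to 30.9 and from 0.442 to 81.2 CPM in the same order. Cumulus and granulosa markers ran from 0 to 0.398 and from 0 to 0.898 CPM, with *Cyp19a1* and *Fshr* at 0 in every library. Of the 38 tested genes of the 6 lists, 0 were called by edgeR (0.193% of all tested genes were), 4 by DESeq2 (*Nanog*, *Fgf4*, *Usp17lc* and *Zscan4d*, all lower, beside 1.03% of all tested genes) and 1 by limma voom (*Zscan4c*, lower, beside 0.654%). By edgeR, 11 of the 38 had an unadjusted p under 0.05 (28.9%, beside 12.5% of all tested genes), none of them higher in *Upf2*-null embryos. These 11 are not split by list here, and genes of a list, such as the 2-cell genes, need not vary independently. The share is therefore no measure of a change across all 6 lists. In whole embryos, fewer cells of a type and less RNA per cell cannot be told apart.

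The 3429 loci shared 2720 distinct nearest genes, of which 2402 had a row in the counts and 1489 reached 10 counts in at least 1 embryo (62.0%). Of all annotated genes with a row, 42.1% did. Per kb of exon, coding nearest genes had a median of 5.35 CPM over the 19 embryos, beside 0.907 for all coding genes, and 85.7% of them were tested, beside 66.8%. Within 1 kb, the 151 coding genes head-to-head had a median of 11.6 CPM per kb and 98.0% were tested. The 47 with a locus upstream on the same strand had 10.7 CPM per kb (91.5% tested) and the 32 with a locus downstream had 7.95 (78.1%). Only the 38 tail-to-tail stood clearly lower, with 2.51 CPM per kb and 81.6% tested. Head-to-head coding genes from 1 to 5 kb had a median of 13.1 CPM per kb, so a high level was not particular to close head-to-head genes. The 105 coding genes tail-to-tail at 20 kb or more had the lowest median, 0.655 CPM per kb. Genes are not independent replicates, and these medians are given without a test. Because the loci were assembled from reads of the same embryos, their choice was not independent of expression in these libraries.

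Between genotypes, *Tex261* was the only one of the 1489 tested nearest genes called by edgeR's quasi-likelihood test at a Benjamini-Hochberg adjusted p under 0.1 (0.0672%, where 33 of all 17137 tested genes, 0.193%, were called). *Tex261* had 205 to 235 CPM in the 8 *Upf2*-null embryos (median 222) and 131 to 207 in the 11 control embryos (median 160). All 8 *Upf2*-null embryos stood above the control median, and the ranges overlapped only at the highest control embryo. Mean levels were 220.6 ± 11.1 CPM (SD, n = 8) and 163.4 ± 22.6 (SD, n = 11), a log2 fold change of 0.43 ± 0.08 (SE, edgeR adjusted p = 0.0362). The locus beside it, MSTRG.47903 (chr6:83775935-83782962, plus strand), began 121 bases from *Tex261* in the opposite direction, with exons of 292 and 1021 bases. RefSeq places the lncRNA gene *Gm52907* there and also extends *Tex261* into it, so the counted gene and the locus are close neighbours with unknown sharing of reads.

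By DESeq2, 13 of the nearest genes were called, 7 higher and 6 lower in *Upf2*-null embryos (1.03% of all tested genes were called), and by limma voom with quality weights 7 were called, 6 higher and 1 lower (0.654% of all). *Bbs4*, which encodes a part of the BBSome of cilia, and *Dcbld1* were named here after their values were seen, because they passed in several settings. *Bbs4*, 8087 bases head-to-head from MSTRG.58912, was higher by 0.66 on the log2 scale by DESeq2 (adjusted p = 0.00907; 0.108 by edgeR and 0.0154 by limma voom). *Dcbld1*, 18371 bases downstream of MSTRG.5192, had a log2 fold change of -0.91 by DESeq2 (adjusted p = 0.00440; 0.108 by edgeR and 0.167 by limma voom). With *Upf2*-null embryo 1 or control embryo 5 left out, edgeR also called *Bbs4*, without *Upf2*-null embryo 3 or control embryo 6 or 9 it also called *Dcbld1*, and without control embryo 11 also *Nupr1*, giving 2 calls each time. At an unadjusted p under 0.05, 193 nearest genes passed, 67 higher and 126 lower (13.0%, beside 12.5% of all tested genes). Among the 148 tested coding genes head-to-head within 1 kb, 1 was called and 15 had an unadjusted p under 0.05, 5 higher and 10 lower. Fold changes of those 148 lay above 0 for 65 and below 0 for 83, and over all 1489 nearest genes for 645 and 844 (43.3% above 0, beside 47.7% of all tested genes).

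Some genes that mark the blastocyst's first lineages were the nearest gene of a locus: 6 loci had 1 of the 8 trophectoderm markers nearest, 2 had 1 of the 8 epiblast markers, and 0 had any of the 7 primitive endoderm markers. *Pou5f1*, which encodes the pluripotency factor OCT4, had MSTRG.24491 150 bases away and head-to-head (chr17:35500526-35505867, minus strand), with 3 exons of 442, 99 and 172 bases. RefSeq names a lncRNA gene there, *Gm32362*. *Pou5f1* ran from 21.8 to 129 CPM in *Upf2*-null embryos (median 88.4) and from 50.3 to 143 in control embryos (median 116). In 3 of 8 *Upf2*-null embryos the level was below that of every control embryo, and the genotypes overlapped (log2 fold change -0.47 ± 0.28 SE, edgeR adjusted p = 0.558). *Klf2*, a factor of naive pluripotency, had MSTRG.55694 1235 bases away and head-to-head, with 2 exons of 41 and 171 bases. *Klf2* ran from 10.0 to 59.9 CPM in *Upf2*-null (median 35.0) and from 32.2 to 107 in control embryos (median 47.9), and 7 of 8 *Upf2*-null embryos stood below the control median. This difference did not pass over all genes (log2 fold change -0.74 ± 0.31 SE, edgeR adjusted p = 0.295).

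Among trophectoderm genes, *Cdx2* and *Krt8* each had 2 loci nearest to them. *Cdx2*, needed for trophectoderm fate, had MSTRG.46102 558 bases downstream on the same strand (chr5:147289909-147300246, minus strand, 9 transcripts of up to 5 exons) and MSTRG.46103 on the opposite strand inside the same stretch, both overlapping the RefSeq lncRNA gene *Gm35112*. *Cdx2* ran from 3.70 to 40.8 CPM in *Upf2*-null (median 15.9) and from 3.77 to 34.3 in control embryos (median 18.6), so the groups overlapped almost fully. *Krt8*, a keratin of the trophectoderm, had MSTRG.21012 2150 bases away head-to-head and MSTRG.21036 3494 bases downstream. MSTRG.21012 (chr15:102006493-102009427, plus strand) shared an intron with the GENCODE M21 lincRNA gene *Gm36026*, and the joined exons read cagctggtcagacaGTcatggctctgataa, with the bases on either side of the junction in capitals. *Krt8* ran from 221 to 433 CPM in *Upf2*-null and from 203 to 427 in control embryos (log2 fold change 0.08 ± 0.14 SE, edgeR adjusted p = 0.928). *Gata3* lay 21725 bases from MSTRG.29608, which had 5 exons downstream on the same strand, and *Tfap2c* 19671 bases from MSTRG.33908, where RefSeq names *Gm36038*. Both encode transcription factors of the trophectoderm, and their log2 fold changes were 0.10 ± 0.20 and -0.31 ± 0.22 (SE).

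**Figure D4:**
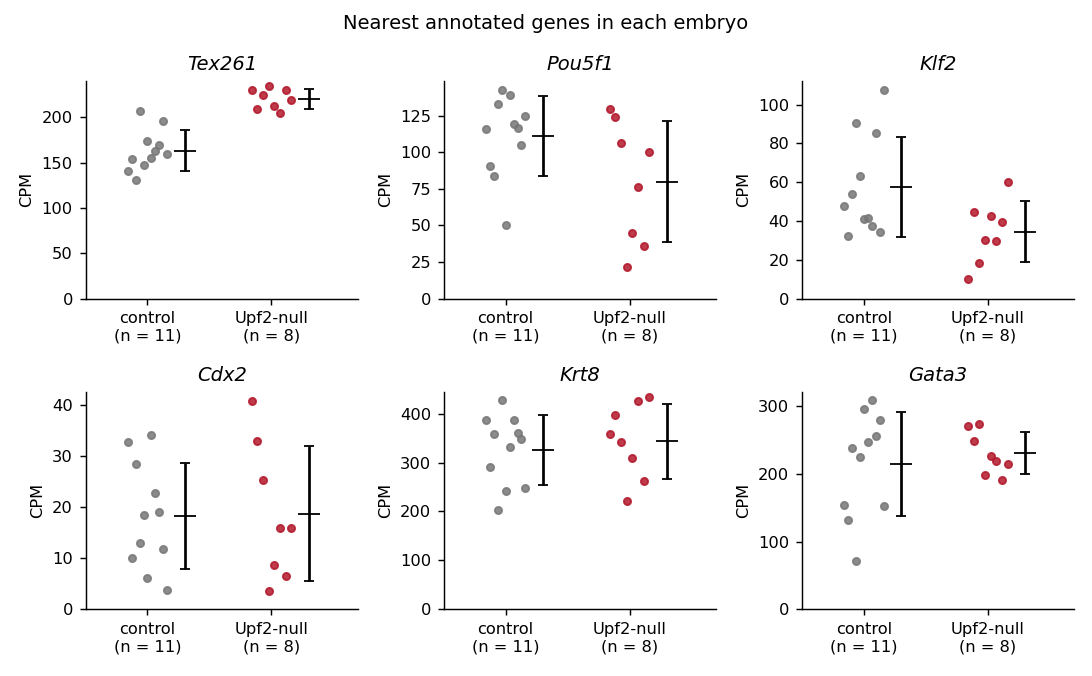
Each point is the level of an annotated gene in 1 embryo in CPM (vertical axis from 0), in control (11) and *Upf2*-null (8) embryos, with the mean and SD as a bar beside the points. The 8 *Upf2*-null embryos have 205 to 235 CPM of *Tex261*, beside 131 to 207 in control embryos, and the genotypes overlap broadly for *Pou5f1*, *Klf2*, *Cdx2*, *Krt8* and *Gata3*.

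*Tcstv1*, a gene of the 2-cell stage, had MSTRG.16689 1256 bases away tail-to-tail, with exons of 176 and 478 bases. *Tcstv1* held 17 counts in all 8 *Upf2*-null libraries and 764 in the 11 control libraries, with a highest level of 3.15 CPM in *Upf2*-null and 108 in control embryos. The control median was 1.91 CPM, so 2 control embryos with 108 and 61.1 CPM held most of the counts, in the genotype where summed 2-cell markers reached 1580 CPM (log2 fold change -5.19 ± 1.64 SE, edgeR adjusted p = 0.255). The size of this difference depended on single embryos and on the tool: it was -4.01 without control embryo 2, -4.73 without control embryo 4 and -8.24 without *Upf2*-null embryo 5 by edgeR, -3.19 by DESeq2 and -1.97 by limma voom, and it passed in none of these. *Has2*, a hyaluronan synthase of cumulus cells, was nearest to MSTRG.19686 at 374565 bases and had 0 and 3 counts in all. The most abundant nearest genes were *Clic4*, *Lrpap1*, *Gja1*, *Hspa9* and *Snx2*, with mean levels of 536 to 710 CPM by genotype, except 525 CPM of *Gja1* in *Upf2*-null embryos, and none passed the edgeR test. *Upf2*-null embryo 2 had 145 CPM of *Gja1*, whose edgeR log2 fold change was -0.25 with all embryos and -0.11 without this embryo. *Gja1* encodes the gap junction protein connexin 43 and had 5 loci nearest to it, all past its 3′ end, and *Lrpap1*, a chaperone of lipoprotein receptors, had MSTRG.42847 head-to-head at 221 bases.

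Later annotation recognised a minority of the loci. GENCODE M21 and the merged models share 116968 transcripts by identifier, all at the same positions, so both use 1 build. Of the 3429 loci on the reference chromosomes, 467 (13.6%) overlapped a GENCODE M21 gene that the models do not hold, and 305 (8.89%) shared exon bases with such a gene on the same strand. Exact splice structure was shared less widely, since 283 of 7826 introns (3.62%) in 172 loci were identical to a GENCODE M21 intron and in 51 loci a whole transcript's introns were. A RefSeq gene overlapped 1205 loci (35.1%), a RefSeq lncRNA gene 884 of them and a coding gene 213. Neither source overlapped 2084 loci (60.8%). The RefSeq table gives no strand, so that overlap is on either strand.

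The share that later annotation overlapped or matched was higher among loci with more exons. A RefSeq gene overlapped 30.2% of loci with 2 exons, 37.4% with 3, 48.8% with 4 and 62.8% with 5 or more (Wilson 95% intervals 28.3 to 32.2, 34.3 to 40.7, 43.2 to 54.5 and 55.0 to 70.0). An intron identical to GENCODE M21 was held by 2.38% of loci with 2 exons and by 19.9% of those with 5 or more (intervals 1.81 to 3.12 and 14.4 to 26.8). Loci with more exons also have more introns that could match. RefSeq overlap was counted over whole spans, introns included, so a longer locus has more room to overlap. The shares were not adjusted for length. MSTRG.7065, with 3 exons (23, 103 and 174 bases), is an example of a match of all introns, though outer exon ends were not compared. Its introns are those of *Gm4129*, a GENCODE M21 RNA of a bidirectional promoter, and it lay 52 bases from *Usp15*. With the bases beside each junction again in capitals, its exon junctions read ccgccccgccggcaGAtgagttgagtgtgt and ggggatcagacttgGAaaggatcccatgcg.

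**Figure D5:**
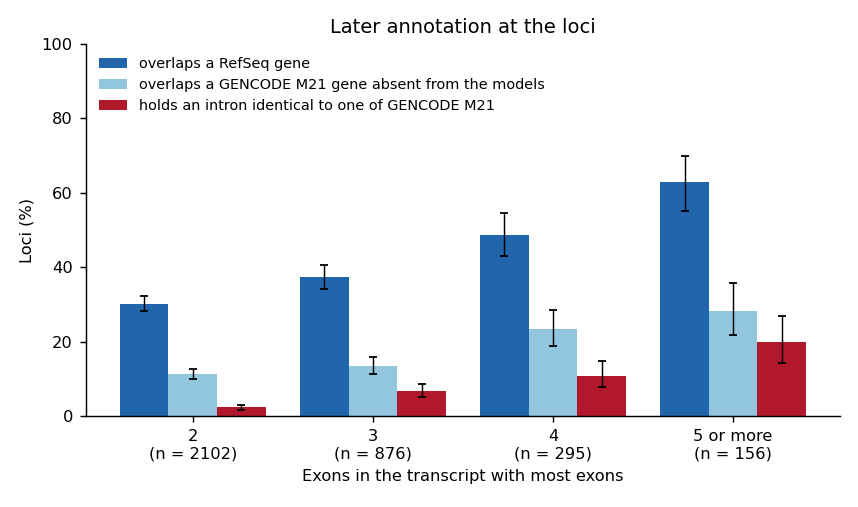
Bars show the share of loci (%) on the reference chromosomes that overlap a RefSeq gene, overlap a GENCODE M21 gene absent from the models, or hold an intron identical to one of GENCODE M21, by number of exons, with Wilson 95% intervals that cover counting error only. The RefSeq share is 30.2% for 2 exons and 62.8% for 5 or more, and the share with an identical intron is 2.38% and 19.9%.

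Some loci overlapped, on either strand, the span of a counted gene as GENCODE M21 now draws it. Such genes numbered 71 with a row, of which 30 shared exon bases with a locus on the same strand, every one also held by the models under shorter bounds, and 58 were tested. None of the 58 was called by edgeR, DESeq2 or limma voom, where 0.193%, 1.03% and 0.654% of all tested genes were. By edgeR, 4 had an unadjusted p under 0.05 (6.90%, beside 12.5% of all tested genes), 1 of them higher in *Upf2*-null embryos. The most abundant were *Gja1* (582 CPM over all embryos) over MSTRG.5251, *Sod2* (337 CPM), the mitochondrial superoxide dismutase, over MSTRG.23420, *Pwp1* (317 CPM) over MSTRG.6239 and *Usp15* (315 CPM) over MSTRG.7065. Of these 4 genes, *Gja1* shared exon bases with its locus on the same strand and the others did not. MSTRG.5251 shared an intron with *Gja1* as GENCODE M21 has it, and the joined exons read ttactctggttagaGGcatctcaaggattc. These counts include exons outside the loci and were made with an older annotation, so they give the level of the gene and not of the locus.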

How the data were processed

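Single E3.25 blastocysts, 8 *Upf2*-null and 11 control, were sequenced by the authors from full-length cDNA. The deposited counts are whole numbers of reads per Ensembl gene, which the authors made with STAR 2.5.2a, SAMtools duplicate removal and featureCounts; whether counting used strand is not given in the sources used here. The deposited transcript models (start and end positions of exons) were assembled with StringTie 1.3.3b per embryo, guided by GENCODE M12 on mm10 after HISAT2 mapping, with a minimum isoform fraction of 0.1, and merged over embryos keeping retained introns. They hold no level per embryo. A deposited table of scaled values was not used.

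Distance was counted in bases between the span of a locus and the nearest span of an annotated transcript. The 1489 tested nearest genes were fitted with all other genes: at least 10 counts in at least 1 embryo, edgeR 4.0.16 quasi-likelihood test, TMM, robust, no covariate, adjusted p under 0.1. DESeq2 1.42.0 and limma 3.58.1 were alternatives, and the steps were tested on simulated data. CPM uses TMM library sizes. The 83 pairs of embryos of a genotype all differed beyond counting noise (lowest mean chi-square per gene 10.5, where noise gives 1), and p-values measure the spread between embryos. Of 41388 counted genes, 40463 are in the models. The 108 promoters and all sequences came from RefSeq and GENCODE M21 on GRCm38. Named loci were those with most exons, longest, nearest and farthest (3 each) and the 10 loci that lay over the most abundant counted genes. Named genes were called, marker, 5 most abundant or with most loci. The loci and lists were chosen with earlier results of these data known.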

Additional observations from a re-analysis of the deposited data

Results flagged for a closer look

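*Tcstv1*, the 2-cell gene nearest to MSTRG.16689, had 3.15 CPM in *Upf2*-null embryo 5, far from the other 7 embryos of its genotype, which had 0 to 0.221 CPM. It was the 1 gene of 15 named nearest genes with an embryo so far from the others among the 8 *Upf2*-null embryos, and chance alone marks about 1 group in 20.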

How the results depend on the processing

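The number of loci was 1364 with at least 3 exons, 5440 with overlap counted on annotated exons only, 5298 with spans on the same strand only and 2294 without overlap with a RefSeq gene, the last chosen after seeing the data. Those 2294 include the 70 loci on scaffolds, where later annotation was not compared. The median distance was 27097 bases to the nearest gene on the same strand and 22034 to a coding gene. The number of nearest genes called (1 by edgeR) was 13 by DESeq2, 7 by limma voom, 3 by library size alone, 3 with at least 10 counts in at least 8 embryos (*Tex261*, *Bbs4* and *Dcbld1* in both), 2 among nearest genes on the same strand (*Atg12* and *Gm21092*), and 1 to 2 with an embryo left out. The same-strand genes are a different set, and how many of them were tested is not given here. Over all tested genes, 33 were called, 176 by DESeq2, 112 by limma voom and 11 at an adjusted p under 0.05. This number over all genes was 44 by library size alone, 37 with at least 10 counts in at least 8 embryos and 14 to 43 with an embryo left out. It fell to 20 or fewer when control embryo 1, 3, 7 or 8 was left out, and to 16 or fewer without any of *Upf2*-null embryos 4 to 8. *Tex261* was called in every fit but the replicate block, and it is not among the nearest genes on the same strand.

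Same-numbered embryos showed little shared deviation (8 correlations, -0.137 to 0.0687), and pairs of unlike number were not compared. Whether a number stands for a shared dam or batch was not tested. A fit with the number as a replicate block used only embryos numbered up to 8, so it left out the control embryos numbered above 8. It also spent more coefficients on fewer embryos, so its loss of calls is not due to blocking alone. In that fit edgeR called 0 nearest genes and 0 of all genes, with 77 and 684 at an unadjusted p under 0.05. *Tex261* was 0.48 higher on the log2 scale there (edgeR adjusted p = 0.570). Fold changes near 0 turned sign in 2 genes: *Lrpap1* (0.04) to -0.000912 without control embryo 6 and between -0.0136 and 0.0957 with any embryo left out, and *Cdx2* (0.04) to -0.22 by limma voom, -0.32 with the replicate block and between -0.23 and 0.19 with an embryo left out. The causes were not tested. Splice-site letters of the introns, intron filters that need them and loci per Mb of chromosome were not run, because no genome sequence was used here. Of 2402 nearest genes with a row, 913 stayed under 10 counts in every embryo and were not tested, whether through depth or low expression.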
